A study of Mus musculus with 16 samples.

Results

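The mast cell genes described here are Mcpt1, Mcpt2, Mcpt4, Cma1, Cpa3, Tpsb2, Ms4a2 and Hdc. They are the rows of the deposited count table whose Ensembl identifiers map to those symbols, and all 8 were found among 55359 rows. Read counts came from duodenum and ileum of adult male C57BL/6N mice on a high fat diet. The 4 control mice (C133, C134, C151 and C154) carried Neurog3f/f, the floxed allele without Cre. The 4 mutant mice (M136, M167, M168 and M177) carried Neurog3f/f and Villin-CreERT2, a tamoxifen-dependent Cre driven in the gut epithelium. Tissue was taken 5 weeks after tamoxifen, and the same 8 mouse numbers occur in both tissues, giving 16 libraries and 4 groups of 4. Neurog3 is the transcription factor that epithelial progenitors need to become enteroendocrine cells, and mast cells are not cells of that epithelium. Cre with its activation and the loss of Neurog3 always occurred together and cannot be told apart.

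Mast cells are tissue-resident immune cells that store proteases, histamine and heparin in granules and release them when IgE or other signals reach the cell surface. In the mouse, mucosal mast cells of the gut epithelium and lamina propria are known for the chymases Mcpt1 and Mcpt2. Connective tissue mast cells of the submucosa and muscle are known for Mcpt4, Cma1 (mouse mast cell protease 5), Cpa3 (mast cell carboxypeptidase A) and the tryptase Tpsb2. Ms4a2 encodes the beta chain of the high-affinity IgE receptor, and Hdc encodes histidine decarboxylase, which makes histamine from histidine in mast cells, basophils and some epithelial and myeloid cells.

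Mcpt1, Mcpt4 and Cma1 belong to 1 gene cluster on chromosome 14, and the upstream sequences of Mcpt1 and Mcpt4 are shown because they are near copies, of which Mcpt1 fell in the mutants while Mcpt4 was not called; Cpa3 is shown as a mast cell gene from outside the cluster. The RefSeq promoter table (GRCm38.p6) held 6 of the 8 genes; Mcpt2 and Tpsb2 were not among them. Each sequence below is the 250 bases before the annotated start, 5′ to 3′ on the gene's strand. Capitals mark the GATA words TGATAA or AGATAA or their reverse complements, which are among the words that GATA factors of the mast cell lineage are known to bind. TGATAG and AGATAG were not searched for. The Mcpt1 window is chr14:56017714-56017963 on the plus strand, the Mcpt4 window is chr14:56062311-56062560 on the minus strand and the Cpa3 window is chr3:20242182-20242431 on the minus strand.
Mcpt1: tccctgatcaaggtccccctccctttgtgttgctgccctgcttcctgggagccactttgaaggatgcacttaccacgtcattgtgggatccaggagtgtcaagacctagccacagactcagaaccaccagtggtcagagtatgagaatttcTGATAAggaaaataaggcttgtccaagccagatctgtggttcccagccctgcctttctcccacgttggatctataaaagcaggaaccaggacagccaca
Mcpt4: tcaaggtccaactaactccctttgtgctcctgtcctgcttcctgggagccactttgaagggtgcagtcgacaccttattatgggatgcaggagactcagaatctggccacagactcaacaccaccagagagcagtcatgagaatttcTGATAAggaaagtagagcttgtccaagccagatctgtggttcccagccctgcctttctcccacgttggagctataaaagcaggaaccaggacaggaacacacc
Cpa3: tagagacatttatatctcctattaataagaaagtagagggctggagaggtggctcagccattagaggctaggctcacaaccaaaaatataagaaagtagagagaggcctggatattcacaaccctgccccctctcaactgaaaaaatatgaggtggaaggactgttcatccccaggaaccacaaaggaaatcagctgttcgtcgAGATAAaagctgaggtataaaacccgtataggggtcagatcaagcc
The Mcpt1 and Mcpt4 windows were identical at 88.8% of 240 aligned bases. Gaps were left out of this measure, by which the other pairs of the 6 windows ranged from 64.8% (Mcpt1 and Cpa3) to 77.4% (Ms4a2 and Hdc). Mcpt1 and Mcpt4 both had 1 GATA word in the same stretch of sequence, starting 99 bases before the start in Mcpt1 and 103 bases before it in Mcpt4. Cpa3 had 1 GATA word starting 46 bases before the start and Ms4a2 had 3, while Cma1 and Hdc had none of the words searched for. Of all 32851 windows of the same length in the table, 16.6% held at least 1 such word, and these matches are descriptions of letters and not of binding.

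All levels are counts-per-million (CPM) values, scaled with edgeR's TMM factors over the 16 libraries. The libraries held 40869732 to 67180948 counts, so that 1 count was 0.0140 to 0.0277 CPM and 3 counts, the limit that a count of 0 allows, were 0.0420 to 0.0831 CPM. The targeted gene followed the labels: Neurog3 had 123 to 175 counts in each control duodenum and 27 to 70 in each control ileum, and the mutants had 1 count in total in each tissue. Several libraries carried transcripts of neighbouring tissue. Digestive enzyme transcripts of the exocrine pancreas, summed over 10 genes, were 2.03 to 29164 CPM in control duodenum and 8277 to 185572 CPM in mutant duodenum, and C134 and C154 were the controls near 0 in both tissues. The lymphoid follicle list (6 genes, among them Cr2 and Cxcl13) summed to 109 and 127 CPM in the ileum of C134 and C154, against 3.42 and 5.28 CPM in the other control ileum libraries and 1.76 to 4.23 CPM in the mutants. Values without C134 and C154, or without M167 and M177, are given below where they end a call.

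The mucosal chymases Mcpt1 and Mcpt2 fell in the duodenum of the mutants, and no other tested mast cell gene among the 8 was called there. Their change was not tested against that of the other genes. Mcpt1 was at 4.15, 2.68, 3.55 and 6.34 CPM in the duodenum of C133, C134, C151 and C154, and at 1.17, 0.708, 1.61 and 0.665 CPM in M136, M167, M168 and M177. Every mutant library lay below every control library. The means were 4.18 ± 1.56 and 1.04 ± 0.444 CPM (SD, n = 4 each), a 3.95-fold lower level in the mutants (log2 fold change -1.98, SE 0.34, adjusted p = 0.00876 by edgeR's quasi-likelihood test).

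Mcpt2, the neighbouring chymase made by the same mucosal cells, followed Mcpt1 closely. Its levels were 1.66, 1.30, 1.97 and 3.08 CPM in control duodenum and 0.577, 0.401, 0.605 and 0.360 CPM in mutant duodenum, in the same order of mice. The groups again did not overlap, and the means of 2.004 ± 0.767 and 0.486 ± 0.123 CPM (SD, n = 4 each) differed 4.03-fold (log2 fold change -2.01, SE 0.32, adjusted p = 0.0064, edgeR). These were 2 of the 6 genes that passed the filter on low counts, with 0 higher and 2 lower. Over all 17611 genes tested in the duodenum, 5.11% were called lower and 3.44% higher, and the median log2 fold change was 0.02, against -0.41 over the 6. In whole tissue, fewer mast cells and less of these RNAs per mast cell cannot be told apart.

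The duodenal difference kept its direction without the libraries that stood apart, with fewer libraries in the test. Without C134 and C154, which had next to no pancreatic transcripts, the log2 fold change was -1.87 for Mcpt1 (adjusted p = 0.0536, edgeR) and -1.88 for Mcpt2 (adjusted p = 0.0334). Without M167 and M177, which had the most pancreatic transcripts, it was -1.58 for Mcpt1 (adjusted p = 0.06) and -1.75 for Mcpt2 (adjusted p = 0.0518).

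In the ileum the same chymases showed a similar mean difference, but it rested on C134 and C154. The control libraries had 1.27, 3.41, 1.16 and 7.40 CPM of Mcpt1, and the mutant libraries 0.657, 1.40, 1.22 and 0.536 CPM. C134 and C154 stood above all other ileum libraries, while C133 and C151 lay within the range of the mutants. The means were 3.31 ± 2.92 and 0.953 ± 0.421 CPM (SD, n = 4 each), and the difference missed the threshold (log2 fold change -1.76, SE 0.65, adjusted p = 0.0685, edgeR).

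Mcpt2 in the ileum had the same pattern, with 0.570, 1.18, 0.551 and 3.13 CPM in the controls and 0.411, 0.308, 0.575 and 0.268 CPM in the mutants. The groups overlapped at C133 and C151. Its lower level in the mutants passed (log2 fold change -1.77, SE 0.58, adjusted p = 0.0401, edgeR). Without C134 and C154, the same mice whose ileum carried follicle transcripts, the log2 fold change was -0.29 for Mcpt1 (adjusted p = 0.638) and -0.47 for Mcpt2 (adjusted p = 0.453). Smooth muscle transcripts moved with this split as well: the 8 listed genes summed to 3126 and 3080 CPM in C134 and C154 and to 4011 and 4373 CPM in C133 and C151. With smooth muscle as a covariate the log2 fold changes were -0.92 for Mcpt1 (adjusted p = 0.218) and -1.06 for Mcpt2 (adjusted p = 0.114), and the part of follicle and muscle tissue in the result was not tested further.

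**Figure D1:**
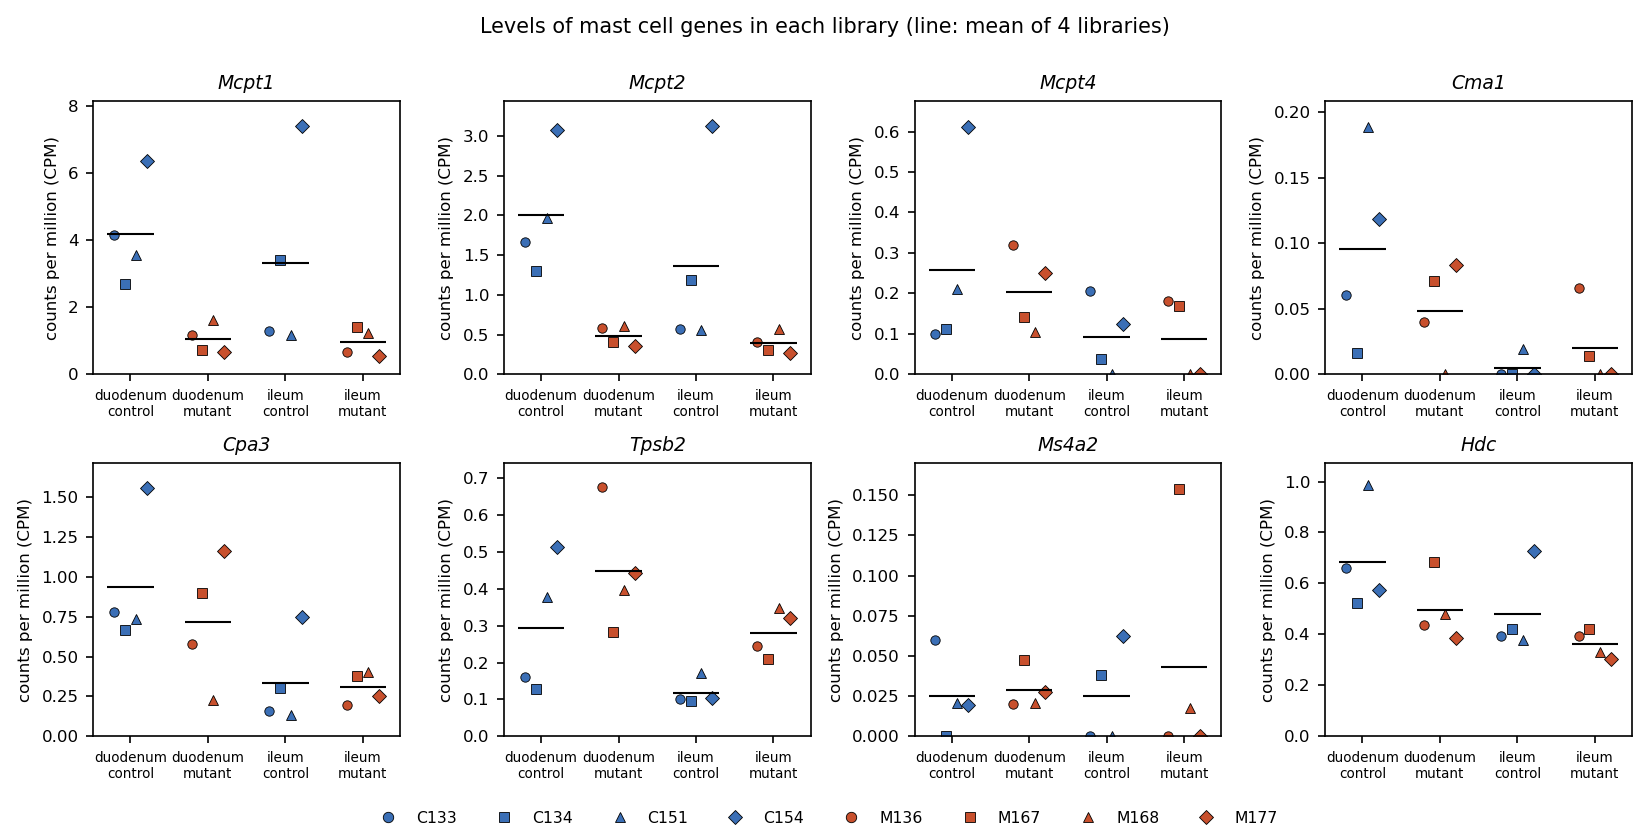
Level of each of the 8 mast cell genes in CPM (vertical axis, linear, its own range for each gene) in the 4 tissue and genotype groups (horizontal axis); each point is 1 library, its shape marks the mouse and the line is the mean of 4 libraries. Mcpt1 and Mcpt2 lie lower in all 4 mutant duodenum libraries than in any control, whereas in the ileum C133 and C151 sit among the mutants.

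The connective tissue chymases were near the detection limit in both tissues and showed no called genotype difference. Mcpt4 was at 0.100, 0.111, 0.210 and 0.612 CPM in control duodenum and at 0.318, 0.142, 0.104 and 0.249 CPM in mutant duodenum, with broad overlap (log2 fold change -0.31, SE 0.62, adjusted p = 0.772, edgeR). In the ileum it was at 0.205, 0.0381, 0 and 0.124 CPM in controls and 0.181, 0.168, 0 and 0 CPM in mutants, too low to be tested. Cma1, whose product is a chymase with elastase activity in rodents, had 3, 1, 9 and 6 counts in control duodenum and 2, 3, 0 and 3 in mutant duodenum. In the ileum it had 0, 0, 1 and 0 counts in controls and 4, 1, 0 and 0 in mutants. Most ileum libraries were thus at or below the limit of 3 counts, and no genotype difference was detectable at this depth.

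Tpsb2 rose in the mutant ileum, though from few counts. This tryptase of connective tissue mast cells was at 0.102, 0.0953, 0.171 and 0.104 CPM in control ileum and at 0.246, 0.210, 0.349 and 0.321 CPM in mutant ileum. Every mutant library lay above every control library, on 5 to 9 counts per control library. The rise was 2.41-fold (log2 fold change 1.27, SE 0.39, adjusted p = 0.0295, edgeR), from a mean of 0.118 ± 0.0354 to 0.282 ± 0.0644 CPM (SD, n = 4 each). Leaving out 1 mouse at a time kept the log2 fold change between 1.16 and 1.49 but left the adjusted p over the threshold in 6 of 8 fits. Without C134 and C154 the log2 fold change was 1.10 (adjusted p = 0.189), and without M167 and M177 it was 1.37 (adjusted p = 0.082). In the duodenum Tpsb2 was at 0.160, 0.127, 0.378 and 0.513 CPM in controls and 0.676, 0.283, 0.397 and 0.443 CPM in mutants, and the overlapping groups were not called (log2 fold change 0.64, SE 0.47, adjusted p = 0.383).

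Of the 5 genes tested in the ileum, Tpsb2 was therefore the 1 called higher and Mcpt2 the 1 called lower. Among all 18310 genes tested there, 19.0% were called higher and 14.6% lower, with a median log2 fold change of -0.03, against -0.36 over the 5. The share of the mast cell genes called was near that of all genes in this tissue.

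Cpa3, the carboxypeptidase named above for connective tissue mast cells, overlapped between genotypes. Its levels were 0.781, 0.667, 0.734 and 1.56 CPM in control duodenum and 0.577, 0.897, 0.230 and 1.16 CPM in mutant duodenum (log2 fold change -0.38, SE 0.45, adjusted p = 0.603, edgeR). The ileum had 0.161, 0.305, 0.133 and 0.746 CPM of Cpa3 in the controls, and 0.197, 0.378, 0.401 and 0.250 CPM in the mutants (log2 fold change -0.08, SE 0.55, adjusted p = 0.923). C154 was the highest control for Cpa3 in both tissues, as it was for Mcpt1 and Mcpt2.

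Hdc was at 0.661, 0.524, 0.986 and 0.573 CPM in control duodenum and at 0.438, 0.684, 0.480 and 0.388 CPM in mutant duodenum. The control ileum had 0.395, 0.419, 0.380 and 0.725 CPM of Hdc, and the mutant ileum 0.394, 0.420, 0.331 and 0.304 CPM. The groups overlapped in both tissues, with log2 fold changes of -0.44 (SE 0.30, adjusted p = 0.36) and -0.36 (SE 0.33, adjusted p = 0.418, edgeR).

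Ms4a2, the IgE receptor beta chain, was at 3, 0, 1 and 1 counts in control duodenum and 1, 2, 1 and 1 counts in mutant duodenum. Control ileum had 0, 2, 0 and 3 counts, and mutant ileum had 0, 11, 1 and 0 counts. M167 was the single library clearly above the limit of 3 counts. Ms4a2 did not pass the filter on low counts; fitted without the filter, its log2 fold change was 0.21 in the duodenum (adjusted p = 0.944) and 0.89 in the ileum (adjusted p = 0.689, edgeR).

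**Figure D2:**
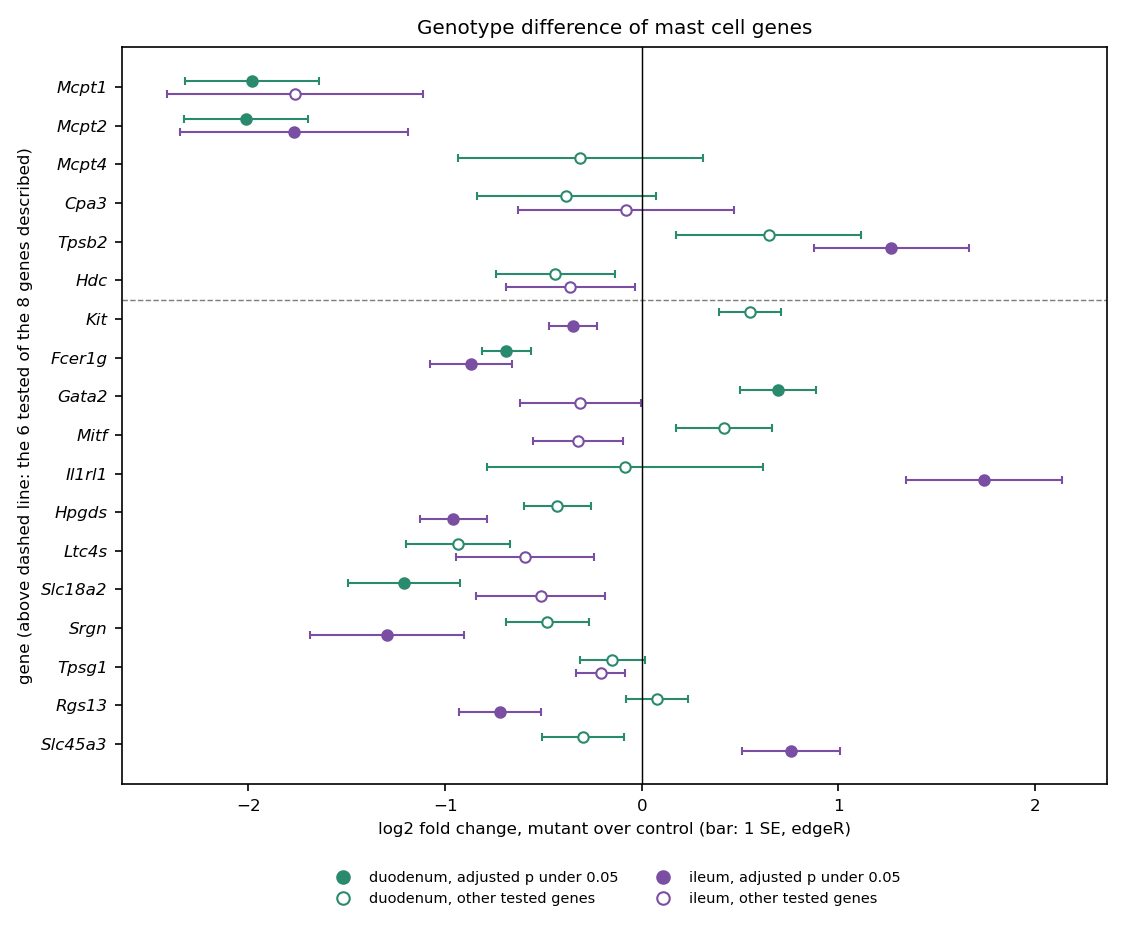
Log2 fold change of mutant over control (horizontal axis; bars are 1 SE from edgeR) for the 6 tested of the 8 mast cell genes and for other genes of mast cells (vertical axis), in duodenum and ileum; filled points have an adjusted p under 0.05. Mcpt1 and Mcpt2 lie between -2.01 and -1.76 in both tissues, Tpsb2 and Il1rl1 lie above 0 in the ileum, and Mcpt4 was not tested in the ileum.

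Because Mcpt1 and Mcpt2 mark mucosal cells and Mcpt4, Cma1 and Tpsb2 mark connective tissue cells, the balance between them was described within each library. Cpa3, also named above for connective tissue cells, was left out, and a share with it included was not computed. The measure was chosen after the levels had been seen and is given without a test. Mcpt1 and Mcpt2 made up 94.8%, 94.0%, 87.7% and 88.3% of the counts of these 5 protease genes in the duodenum of C133, C134, C151 and C154. In M136, M167, M168 and M177 the share was 62.9%, 69.1%, 81.5% and 56.9%. No mutant library reached the lowest control, and the means were 91.2 ± 3.71% and 67.6 ± 10.5% (SD, n = 4 each).

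The ileum showed the same order, with shares of 85.7%, 97.2%, 90.0% and 97.9% in controls and 68.4%, 81.3%, 83.7% and 71.4% in mutants. The highest mutant, M168, and the lowest control, C133, were close, and their exact Clopper-Pearson 95% intervals of 76.0 to 89.8% and 79.0 to 90.9%, which cover counting error only, overlapped. Against C133 and C151 alone, whose Mcpt1 levels lay among the mutants, the share was still lower in the mutants, by a mean of 11.6 percentage points, compared with 16.5 points against all 4 controls. The ratio of Mcpt1 to Mcpt2 counts differed between genotypes by less than the spread between mice: its log2 value was 1.06 ± 0.194 and 1.03 ± 0.264 in control and mutant duodenum, and 1.25 ± 0.199 and 1.24 ± 0.656 in control and mutant ileum (SD, n = 4 each). Relative to Cpa3, log2 of the Mcpt1 ratio was 2.98 to 3.48 in control ileum and 1.10 to 1.89 in mutant ileum. In the duodenum it was 2.01 to 2.41 in controls and ranged from -0.81 in M177 to 2.81 in M168.

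**Figure D3:**
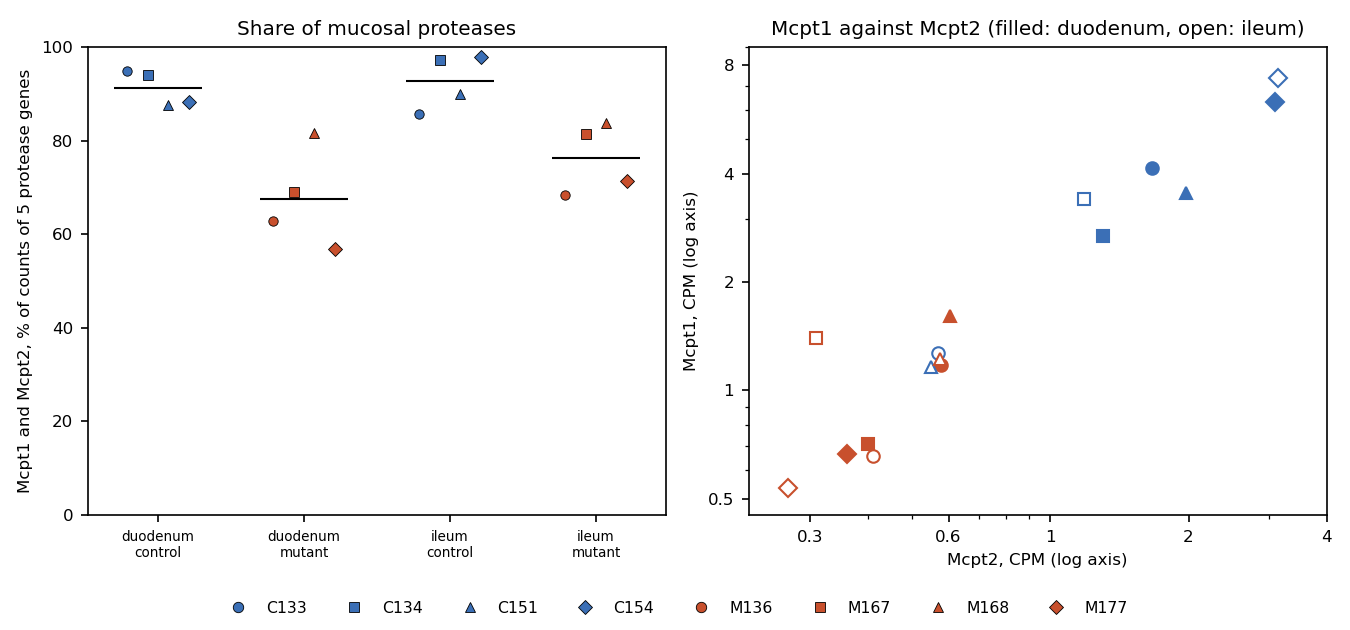
Left, counts of Mcpt1 and Mcpt2 as a percentage of the counts of 5 mast cell protease genes in each library (points; shapes mark mice, lines are group means); all mutant libraries lie below all control libraries of the same tissue. Right, Mcpt1 against Mcpt2 in CPM on log axes, 1 point per library; most libraries of both genotypes and tissues lie close to 1 line, and the ileum of M167 lies above it.

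The chymase genes are related in sequence, so reads could in principle be split between copies; Tpsb2 was not compared with other tryptases. In the GENCODE transcripts, Mcpt1 was identical to Mcpt2 at 84.0% and to Mcpt4 at 85.5% of aligned bases. No 50-base window of Mcpt1 occurred unchanged in Mcpt2 or Mcpt4, and the single overlap among the chymases examined was 0.661% of Mcpt4 windows found in Mcpt9.

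Compared per kilobase of exon, which allows genes to be set side by side, control duodenum had most Mcpt1 (4.12 ± 1.54 CPM per kb), then Mcpt2 (1.89 ± 0.723), Cpa3 (0.646 ± 0.289), Hdc (0.287 ± 0.0869), Mcpt4 (0.233 ± 0.217), Tpsb2 (0.185 ± 0.115), Cma1 (0.0879 ± 0.0687) and Ms4a2 (0.00896 ± 0.00895; SD, n = 4 each). Hdc, Mcpt4 and Tpsb2 did not differ beyond their spread. In mutant duodenum Mcpt1 (1.02 ± 0.438 CPM per kb), Cpa3 (0.495 ± 0.278) and Mcpt2 (0.458 ± 0.116) came next to each other in the order, Cpa3 and Mcpt2 within their spread, and Tpsb2 stood at 0.282 ± 0.104. In control ileum Mcpt1 (3.26 ± 2.88) and Mcpt2 (1.28 ± 1.15) had wide spreads, and Cpa3 stood at 0.232 ± 0.196. In mutant ileum the order was Mcpt1 (0.940 ± 0.415), Mcpt2 (0.368 ± 0.129), Cpa3 (0.211 ± 0.0680) and Tpsb2 (0.177 ± 0.0404).

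Between tissues, Cpa3 was lower in ileum than in duodenum of control mice, and the other tested genes showed no called difference. The Cpa3 means were 0.336 ± 0.283 and 0.936 ± 0.419 CPM (SD, n = 4 each), a 2.80-fold difference (log2 fold change -1.49, SE 0.52, adjusted p = 0.0319, edgeR), and ileum was below duodenum in each of the 4 mice. With the mouse as a replicate block the adjusted p was 0.00228 and without C134 and C154 it was 0.00174 (log2 fold change -2.31), but with 1 mouse left out at a time the call held in 1 of 4 fits (adjusted p up to 0.114). Of 4 genes tested 1 was lower, while 30.3% of 18217 genes were lower and 28.0% higher in control ileum. In mutant mice the Cpa3 difference was -1.18 (SE 0.47, adjusted p = 0.0793), and 0 of 6 genes were called by edgeR or DESeq2, against 18.2% lower and 12.9% higher among 17852 genes (of the 6, Cpa3 alone had an unadjusted p under 0.05 in edgeR).

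Mcpt1 and Mcpt2 in control mice differed little between tissues on average, with log2 fold changes of -0.33 (SE 0.63, adjusted p = 0.678) and -0.56 (SE 0.58, adjusted p = 0.431, edgeR). This mean joined unlike mice: Mcpt1 was lower in ileum than in duodenum in C133 and C151, and higher in C134 and C154. Leaving out C134 and C154 kept only C133 and C151, the mice in which Mcpt1 was lower in ileum, so a fall was given by that choice. With 2 libraries per tissue the log2 fold change was -1.63 for Mcpt1 (adjusted p = 0.000123) and -1.66 for Mcpt2 (adjusted p = 0.000803, edgeR). Between control tissues Mcpt1 passed in 1 of 11 alternatives and Mcpt2 in 2 of 11.

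The genotype difference itself was compared between tissues by an interaction term over the 16 libraries. It was 0.21 (SE 0.76, adjusted p = 0.873) for Mcpt1, 0.24 (SE 0.68, adjusted p = 0.836) for Mcpt2 and 0.61 (SE 0.62, adjusted p = 0.527) for Tpsb2, as log2 difference of ileum minus duodenum (edgeR). None of the 6 tested genes was called by edgeR or DESeq2, and 0 had an unadjusted p under 0.05 in edgeR; of 19289 genes, 4.86% were called higher and 4.13% lower. A difference in response between duodenum and ileum was not detectable with standard errors of this size.

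Across the 16 libraries, which come from 8 mice and share tissue and depth, log2 CPM of Mcpt1 followed that of Mcpt2 with a Pearson r of 0.96. Hdc followed Mcpt2 with r = 0.70 and Cpa3 with r = 0.58, and Tpsb2 had r = -0.30 with Mcpt1. Mcpt4 and Cma1, both on few counts, had r = 0.60 with each other and r = 0.27 and 0.10 with Mcpt1. Among 14247 genes with a mean of at least 1 CPM, those most like Mcpt1 were Gpr141b (r = 0.96), Cfp (0.90), Arhgef6 (0.89), Pkib (0.88) and Ly86 (0.88). Those most like Cpa3 were Tmem176a (0.84), Plvap (0.84), Lpar6 (0.82), Esam (0.82) and Igkv4-72 (0.81). Those most like Hdc were Serpina3f (0.81), P2ry12 (0.80), C6 (0.80), Pik3c3 (0.79) and Zfp429 (0.79). Gpr141b stood at 2.95 ± 0.627 CPM in control and 1.23 ± 0.229 CPM in mutant duodenum, and at 2.53 ± 1.23 CPM in control and 0.985 ± 0.207 CPM in mutant ileum (SD, n = 4 each).

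Other genes of mast cells gave a mixed picture. Of 17 such genes 12 were tested, with 1 higher and 2 lower in the duodenum (median log2 fold change -0.22) and 2 higher and 5 lower in the ileum (median -0.43). Of all genes tested, 3.44% rose and 5.11% fell in the duodenum, and 19.0% rose and 14.6% fell in the ileum. Gata2, a GATA factor of the mast cell lineage, was the gene called higher in the duodenum (log2 fold change 0.69, SE 0.19, adjusted p = 0.0496, edgeR). Without the low count filter its adjusted p was 0.104. In the ileum Gata2 had -0.31 (adjusted p = 0.46), and the calls included Rgs13 (-0.72, adjusted p = 0.0226) and Slc45a3 (0.76, adjusted p = 0.0372). Several defining genes were at or near 0: Tpsab1 had 2 counts in all 16 libraries, and Mrgprb1, Mrgprb2 and Mcpt9 had at most 7 in any library. Several of the more abundant genes are shared with other cells of the gut: Kit with the pacemaker cells of the muscle, Fcer1g and Srgn with other leukocytes, Slc18a2 with neurons and enterochromaffin cells. The part of those cells in the list's counts was not tested.

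Hpgds, which makes prostaglandin D2 in mast cells and also in macrophages and tuft cells, was at 3.96 to 4.37 CPM in control ileum and 1.74 to 2.57 CPM in mutant ileum, without overlap (log2 fold change -0.96, SE 0.17, adjusted p = 0.0017, edgeR). In the duodenum its groups overlapped (-0.43, SE 0.17, adjusted p = 0.128). Fcer1g, the gamma chain shared by IgE and IgG receptors, fell in both tissues, by 0.69 (SE 0.13, adjusted p = 0.0115) and 0.87 (SE 0.21, adjusted p = 0.0092) on the log2 scale. Slc18a2, the transporter that loads histamine and serotonin into granules, fell by 1.21 in the duodenum (SE 0.28, adjusted p = 0.0294) and had -0.51 in the ileum (adjusted p = 0.25). The enteroendocrine list had 6 of 8 genes lower in the duodenum and 8 of 8 in the ileum, and 0 higher in either. Of all genes tested, 5.11% and 14.6% were lower. Any relation of Slc18a2 to that list was not tested. In the duodenum without C134 and C154, values were -0.69 for Fcer1g (adjusted p = 0.111) and -1.16 for Slc18a2 (adjusted p = 0.193), and the ileal value of Fcer1g was -0.82 (adjusted p = 0.0534); ileal Hpgds kept its call (adjusted p = 0.021). The duodenal Slc18a2 call held in 3 of 8 fits with a mouse left out.

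Il1rl1, the receptor for IL-33, rose in the ileum. The control libraries had 7.12, 5.20, 7.78 and 5.95 CPM and the mutant libraries 7.67, 21.7, 34.0 and 21.6 CPM, so that M136 remained at the control level (log2 fold change 1.74, SE 0.40, adjusted p = 0.0122, edgeR). This was 1.57 without C134 and C154 (adjusted p = 0.126) and 1.73 without M167 and M177 (adjusted p = 0.0831). In the duodenum it had a log2 fold change of -0.09 (SE 0.70, adjusted p = 0.949). Kit, the receptor for stem cell factor, was at 64.0 to 85.1 CPM in control ileum and 49.6 to 66.2 CPM in mutant ileum (log2 fold change -0.35, SE 0.12, adjusted p = 0.0488). In the duodenum it was at 20.1 to 23.9 CPM in controls and 23.7 to 41.2 CPM in mutants (0.55, SE 0.16, adjusted p = 0.0541). The interaction term of Kit was -0.92 (SE 0.21, adjusted p = 0.0179, edgeR).

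**Figure D4:**
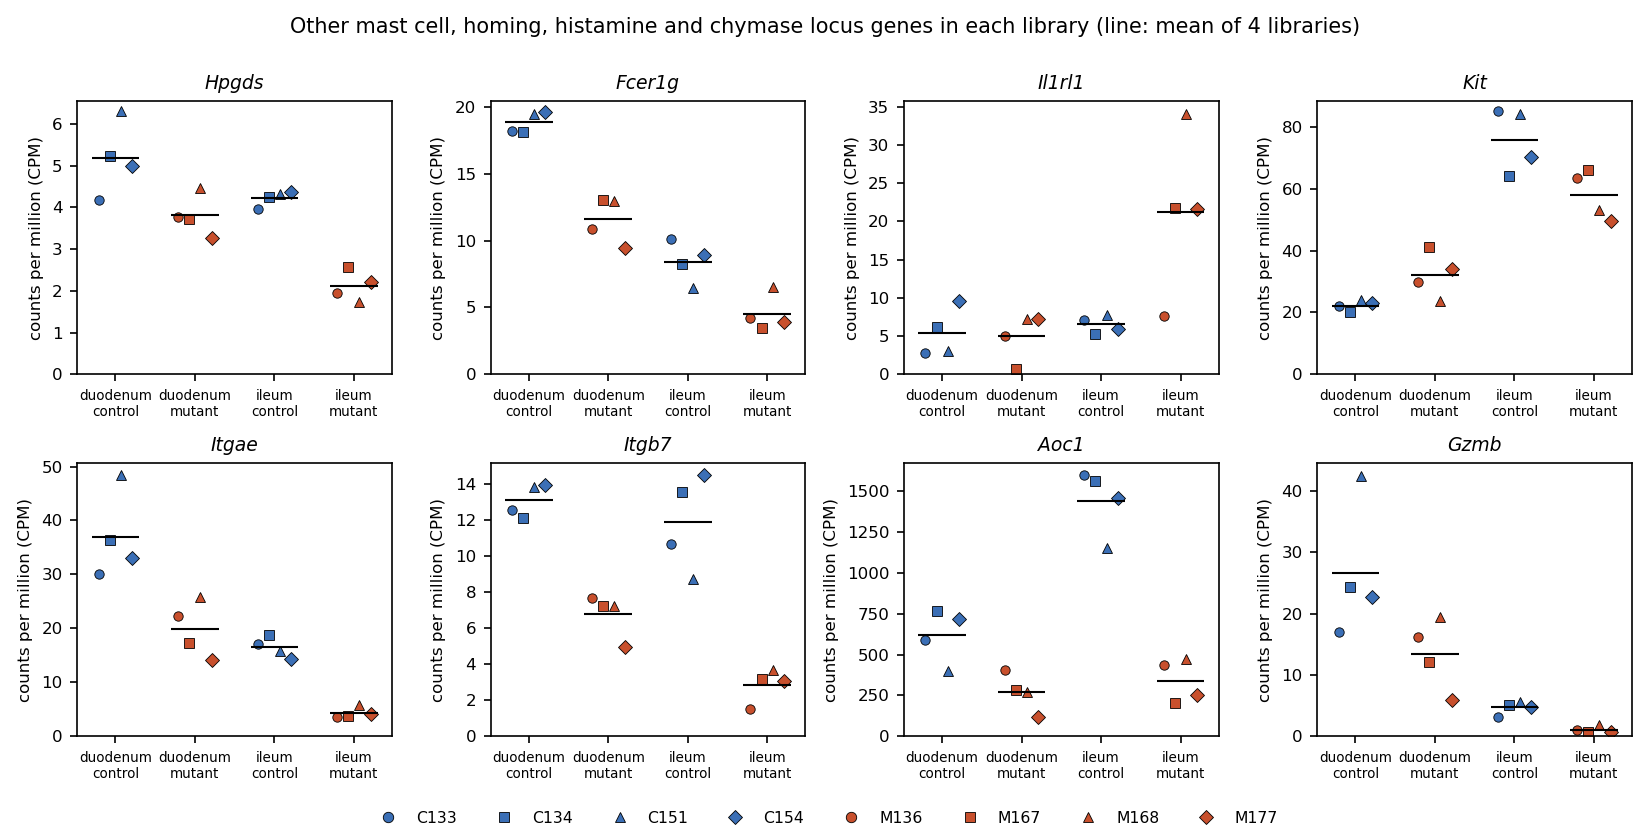
Levels in CPM (vertical axis, linear, its own range for each gene) of genes of mast cells (Hpgds, Fcer1g, Il1rl1, Kit), homing (Itgae, Itgb7), histamine breakdown (Aoc1) and the chymase locus (Gzmb) in the 4 groups; each point is 1 library, shapes mark mice and lines are means. Itgb7 and Itgae lie lower in every mutant library of both tissues, and Aoc1 is lower in every mutant ileum.

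Several genes listed for the growth and homing of mast cells were lower, and none was called higher. Of 18 such genes, 3 of 14 tested fell in the duodenum (median log2 fold change -0.39) and 6 of 13 in the ileum (median -0.61), where 5.11% and 14.6% of all tested genes were lower. Kitl, which encodes stem cell factor, was not called in the duodenum (log2 fold change -0.05, adjusted p = 0.837) or the ileum (-0.03, adjusted p = 0.82, edgeR). The cytokine genes Il3, Il4, Il9 and Il10 were too low to be tested in either tissue. Itgb7, the beta7 integrin that mast cell progenitors and gut lymphocytes use to enter the intestine, was at 12.1 to 13.9 CPM in control and 4.93 to 7.64 CPM in mutant duodenum (log2 fold change -0.94, SE 0.15, adjusted p = 0.00709, edgeR). In the ileum it was at 8.71 to 14.5 CPM in controls and 1.51 to 3.68 CPM in mutants (-2.02, SE 0.27, adjusted p = 0.000451).

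Itgae, the alphaE chain that pairs with beta7 on mucosal mast cells and intraepithelial lymphocytes, fell by 0.88 in the duodenum (SE 0.20, adjusted p = 0.0297) and by 1.91 in the ileum (SE 0.17, adjusted p = 4.32e-05, edgeR). Both integrin chains fell further in the ileum, with interaction terms of -1.05 for Itgae (adjusted p = 0.0299) and -1.10 for Itgb7 (adjusted p = 0.0393). Vcam1, an endothelial ligand of alpha4 integrins, fell by 0.72 (adjusted p = 0.00767) and 0.80 (adjusted p = 0.00321). Itga4 (-1.17, adjusted p = 0.00423), Cxcl12 (-0.61, adjusted p = 0.0049) and Tgfb1 (-0.85, adjusted p = 0.00693), the last known to induce Mcpt1 in cultured mast cells, were lower in the ileum; in the duodenum their adjusted p were 0.109, 0.0592 and 0.0667. The duodenal values without C134 and C154 were -0.95 for Itgb7 (adjusted p = 0.0746), -0.96 for Itgae (adjusted p = 0.144) and -0.66 for Vcam1 (adjusted p = 0.0843). With single mice left out, the duodenal Itgae call held in 3 of 8 fits. In the ileum Itgb7, Itgae, Vcam1, Itga4 and Cxcl12 stayed called without them and Tgfb1 did not (-0.52, adjusted p = 0.0847). Lymphocytes carry most of these homing genes too, and Gzmb, the granzyme of cytotoxic lymphocytes at the far end of the chymase locus, fell by 2.13 in the ileum (SE 0.34, adjusted p = 0.00109) and had -0.97 in the duodenum (adjusted p = 0.164). Gzmb was the 1 tested gene of 11 listed from that locus.

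For the handling of histamine, 0 of 7 tested genes were higher in either tissue, 1 was lower in the duodenum and 3 in the ileum, against 5.11% and 14.6% lower and 3.44% and 19.0% higher among all genes. Aoc1, the diamine oxidase of the epithelium that breaks down histamine, was at 1150 to 1596 CPM in control ileum and 203 to 472 CPM in mutant ileum (log2 fold change -2.05, SE 0.27, adjusted p = 0.000548, edgeR). In the duodenum it had -1.18 (SE 0.36, adjusted p = 0.0708). Hrh1, the H1 histamine receptor, fell by 1.14 (adjusted p = 0.00203) and Slc22a3, an organic cation transporter that takes up histamine, by 1.15 (adjusted p = 0.00476) in the ileum.

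The alarmin and type 2 response list had 1 higher and 1 lower of 10 tested in the duodenum, Ang4 (0.83, adjusted p = 0.0159) and Arg1 (-1.30, adjusted p = 0.0262), and 4 higher and 3 lower of 12 in the ileum, against 19.0% higher and 14.6% lower among all genes there and 3.44% and 5.11% in the duodenum. The duodenal calls were lost without C134 and C154 (Ang4 0.97, adjusted p = 0.0636; Arg1 -1.15, adjusted p = 0.202), and that of Arg1 held in 4 of 8 fits with a mouse left out. Retnlb, a goblet cell product induced by type 2 cytokines, rose in the ileum from 0 to 0.663 CPM in controls to 5.37 to 30.3 CPM in mutants (adjusted p = 0.00623, edgeR). In the duodenum Retnlb did not pass the filter on low counts. Fitted there without the filter, its log2 fold change was 4.19 (adjusted p = 0.0226, edgeR). Gata3, a transcription factor of T cells and innate lymphocytes, fell by 1.51 in the ileum (adjusted p = 0.00176). Il33, the ligand of Il1rl1, was lower in the ileum as well (-0.81, adjusted p = 0.00752), and so was Clca1 (-0.52, adjusted p = 0.0271). The other ileal genes called higher were Areg (1.79, adjusted p = 0.0218), Ccl24 (1.36, adjusted p = 0.0136) and Ang4 (0.50, adjusted p = 0.0431). The ileal Ang4 call held in 8 of 16 alternatives and in 3 of 8 fits with a mouse left out (adjusted p up to 0.117, edgeR). Of the 13 genes of granules and secretion, 1 fell in the duodenum and 5 in the ileum, against 5.11% and 14.6% of all genes. The adaptor Lat fell by 1.22 (adjusted p = 0.044) and 2.51 (adjusted p = 0.00035), and in the ileum the kinases Lyn (-0.86, adjusted p = 0.000508) and Btk (-1.76, adjusted p = 0.0139) and the granule proteoglycan core Srgn (-1.29, adjusted p = 0.0351) fell as well. The fifth was Ndst2, an enzyme of heparin synthesis, at -0.30 (adjusted p = 0.0332). The duodenal Lat call held in 6 of 16 alternatives and in 1 of 8 fits with a mouse left out (adjusted p up to 0.115). The ileal values without C134 and C154 were -0.67 for Btk (adjusted p = 0.0849), -0.55 for Srgn (adjusted p = 0.188) and -0.33 for Ndst2 (adjusted p = 0.0966), and Srgn and Ndst2 each passed in 7 of 16 alternatives. T cells, B cells and myeloid cells share Lat, Btk, Lyn and Srgn.

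Of the basophil list, Mcpt8, Prss34 and Cd200r3 had 0 to 3 counts in every library. The remaining gene, Itga2, which epithelial cells also express, carried the list's sum: Itga2 was at 66.1 to 89.0 CPM in control and 112 to 139.9 CPM in mutant ileum and rose (log2 fold change 0.73, SE 0.11, adjusted p = 0.000553, edgeR), and it had 0.49 in the duodenum (adjusted p = 0.116). The eosinophil list had 0 of 4 tested genes called in either tissue, although its summed level was 17.1 to 18.1 CPM in control and 8.70 to 15.5 CPM in mutant duodenum. Summed smooth muscle transcripts were 1398 to 1827 CPM in control and 1372 to 2289 CPM in mutant duodenum, and gut epithelial ones 7302 to 8126 and 4969 to 8015 CPM. With smooth muscle as a covariate the duodenal log2 fold changes were -1.81 for Mcpt1 (adjusted p = 0.026) and -1.83 for Mcpt2 (adjusted p = 0.0187, edgeR). Follicle transcripts were 1.54 to 61.1 CPM in control and 2.33 to 13.2 CPM in mutant duodenum, with C134 and C154 the highest. The part of eosinophils and epithelium in the result was not tested.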

How the data were processed

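Raw read counts per gene were deposited by the authors for 16 libraries of rRNA-depleted total RNA made with a stranded kit, as the labels say. The authors' tools, per the submitters' processing notes, were HTSeq 0.6.1p1, STAR 2.5.3a, cutadapt 1.10 and Bowtie2 2.2.8 on mm39. No source used here gives the annotation release or strand setting. Rows with no gene symbol (3276 of 55359, 1.02% of counts) have gene identifiers and stayed in the fits.

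Each comparison was fitted with edgeR 4.0.16 (R 4.3.3, limma 3.58.1): TMM factors, filterByExpr, robust quasi-likelihood tests and Benjamini-Hochberg adjustment over all genes tested, with a threshold of 0.05. Adjusted p-values throughout are from these fits. log2 CPM for correlations used a prior count of 2. The script was tested on simulated data. Genotypes were compared within each tissue, tissues within each genotype, and both by an interaction term; DESeq2 1.42.0, other filters, single mice left out, 2 pairs of mice left out, a smooth muscle covariate and a mouse block were alternatives.

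The mast cell genes and all gene lists were chosen with earlier results of these data known. Besides the 8 genes and Neurog3, genes were named by the smallest p in each list or by the 5 highest correlations. The smallest p rule took 4 per list, and all that passed where 6 or fewer did. The others, among them Kit, Gata2, Kitl, Il33 and marker genes, were named after their values were seen. Libraries of both tissues with the same mouse number were taken as 1 mouse: residuals of the same number correlated with r of 0.221 to 0.481 in all 8 pairs, although for 168 another mouse correlated slightly better (0.260 against 0.253). Exon lengths and transcripts came from GENCODE for GRCm38 and promoters from RefSeq; neither build is that of the counts, so they were joined by gene name. Depth limits the low genes, and intervals cover counting error only.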

Additional observations from a re-analysis of the deposited data

Results flagged for a closer look

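Dixon's criterion was applied to 36 groups of 4 libraries, over the 8 genes and the mucosal protease share. In 5 of them the criterion marked 1 library as apart from the other 3. These were Cma1 in control ileum (0.0190 CPM in C151, 1 count), Cpa3 in control duodenum (1.56 CPM in C154), Tpsb2 in control ileum (0.171 CPM in C151), Hdc in control ileum (0.725 CPM in C154) and Ms4a2 in mutant ileum (0.154 CPM in M167, 11 counts). The Tpsb2 library was the control closest to the mutants. The criterion's rate of about 1 in 20 groups is for normally distributed values and does not hold for counts this low. Cma1 had 0 counts in the other control ileum libraries, so its single count was bound to be marked. Tpsb2 had 5 to 9 counts per control ileum library. Among the 8 genes and those picked by smallest p, the edgeR interaction term was called for Itgae (-1.05, adjusted p = 0.0299), Itgb7 (-1.10, adjusted p = 0.0393) and Lyn (-0.70, adjusted p = 0.0294). Each was lower in mutant ileum by more than in mutant duodenum. Kit, named after its values were seen, was called too (-0.92, adjusted p = 0.0179), with log2 fold changes of 0.55 in the duodenum and -0.35 in the ileum.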

How the results depend on the processing

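The duodenal count of 2 lower genes became 1 without C134 and C154 and 0 without M167 and M177, and it stayed at 2 with each single mouse left out. The ileal count of 1 higher gene became 0 with no low count filter, with at least 1 CPM in 4 libraries (a filter that drops Tpsb2 and Mcpt2), without either pair of mice and with the smooth muscle covariate, and was 0 to 1 with single mice left out. The ileal count of 1 lower gene became 2 with the DESeq2 Wald test and with all 16 libraries in 1 fit, 0 under the same 5 settings as the higher count, and 0 to 2 with single mice left out. In control tissue the count of 1 lower gene became 2 without the filter, adding Cma1 (log2 fold change -3.82, adjusted p = 0.0192, edgeR). That value rested on 1 to 9 counts per duodenum library and 0 to 1 per ileum library. The count was 0 with the 1 CPM filter, 3 without C134 and C154 (C133 and C151 alone), 2 with all 16 libraries and 0 to 2 with single mice left out. In mutant tissue the count of 0 became 0 to 1, reaching 1 without M168. Mcpt1 ranged from -2.27 to -1.58 in the duodenum and passed in 14 of 16 alternatives, and Mcpt2 from -2.17 to -1.73, passing in 15 of 16. In the ileum Mcpt1 passed in 4 of 16 (-2.05 to -0.29), Mcpt2 in 5 of 15 (-2.03 to -0.47) and Tpsb2 in 5 of 15 (1.10 to 1.49).

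Direction changed for uncalled values. Without C134 and C154, the log2 value was 0.40 for Mcpt4 and 0.81 for Il1rl1 in the duodenum, 1.10 for Cpa3 in the ileum and -0.67 for the Mcpt4 interaction. Without M167 and M177 it was 0.19 for duodenal Il1rl1 and -0.22 for the Mcpt1 interaction. With the smooth muscle covariate it was 0.28 for Mcpt4 and 0.48 for Il1rl1 in the duodenum, 0.42 for Cpa3 in the ileum and -0.084 for the Mcpt4 interaction. With single mice left out, the ranges were -0.65 to 0.56 for Mcpt4 and -0.30 to 0.35 for Il1rl1 in the duodenum, -0.35 to 0.66 for Cpa3 in the ileum, -0.51 to 0.10 for Mcpt1 between mutant tissues, and, for the interactions, -0.18 to 0.70 for Mcpt1, -0.012 to 0.77 for Mcpt2, -0.48 to 1.34 for Mcpt4, -0.15 to 0.71 for Cpa3 and -0.26 to 0.40 for Hdc. The cause was not tested. The replicate block by mouse changed no call among the 8 genes, with Cpa3 at -1.62 between control tissues. The mucosal share, whose alternatives were added after seeing the data, was lower in mutants (mutant minus control of -28.2 to -20.02 percentage points in the duodenum and -19.0 to -13.9 in the ileum) with single mice left out. Counts of 0 to 11 per library leave the genotype difference of Cma1 and Ms4a2 undecided.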
